A study of Mus musculus with 8 samples.

Results

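Long intergenic non-coding RNA (lincRNA) probes were examined on microarrays of the mouse striatum. They are the non-control probes whose name in the scanner files is a genomic region beginning with chr, or whose description begins with lincRNA. There were 16251 such probes of 55681 non-control probes, against 39430 other probes. Of these, 16194 were named by a region and strand and 57 carried 1 of 12 other names, such as NEAT1 or HOTAIR. The probes covered 4622 transcripts with 1 to 10 probes each (median 3), so probes of a transcript are not independent of each other.

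Striatal RNA came from male mice aged 4 weeks, with 4 R6/2 samples and 4 wild-type (WT) control samples, each on its own 1-colour array. In R6/2, exon 1 of human huntingtin with an expanded CAG repeat is present as a transgene, which models Huntington's disease, in which striatal projection neurons are affected most. The repeat length, the strain background and whether each sample was a separate animal are not given in the sources used here, so the p-values here reflect variation among these 8 samples, some of which may be technical. All 8 arrays lay on 1 slide, with WT in row 1 and R6/2 in row 2, so that genotype and slide row cannot be told apart. The number of arrays limits the precision. Arrays correlated at 0.983 to 0.992 within a genotype and at 0.981 to 0.990 between genotypes across probes. All 44 striatal projection neuron markers examined were above background. Of these 44 markers, 18 were called lower in R6/2 and 0 higher, with a median log2 difference of -0.55, and 9 were called lower when the replicate number was fitted as a block.

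LincRNAs are transcripts made by RNA polymerase II between protein-coding genes, without a known protein product. Many are spliced and polyadenylated like messenger RNA, some act on chromatin or on nuclear bodies, and in the brain many are restricted to certain cell types. The label intergenic could be checked here only against the positions of gene probes. Regions in an intron or an untranslated part of a gene were therefore not recognized as such. Of 4613 transcripts with a position on mouse build mm9, 3554 (77.0%) contained no probe of a named gene, 683 (14.8%) contained 1 or more on their own strand, and 376 (8.15%) contained them on the opposite strand only. The median region spanned 10676 bases, and the longest 7128487 bases. A region therefore marks where a transcript was annotated rather than how long it is.

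Each probe is a 60-base oligonucleotide, and all 16251 sequences were distinct. The probes below are those on which the results turn, written 5′ to 3′ in the sense of the transcript as the scanner files give them. They represent a region whose 3 probes were all lower in R6/2 (near Gm34583), another such region near Socs2, the opposite strands downstream of Homer1, a pair of overlapping probes at Gm4924, a region beside Strn, a region higher in R6/2 near Sertad4 and the brightest region. Capitals mark AATAAA, the canonical polyadenylation signal, or, for the Gm4924 pair, the 53 bases that both probes share.
A_30_P01024960, chr5:73771801-73772662, forward strand: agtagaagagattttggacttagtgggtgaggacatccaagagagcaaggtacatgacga
A_30_P01028946, the same region: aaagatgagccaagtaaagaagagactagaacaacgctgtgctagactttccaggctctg
A_30_P01018547, the same region: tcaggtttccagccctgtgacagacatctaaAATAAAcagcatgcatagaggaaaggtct
A_30_P01027314, chr10:94870971-94871658, reverse strand: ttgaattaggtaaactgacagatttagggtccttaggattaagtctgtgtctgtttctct
A_30_P01024852, the same region: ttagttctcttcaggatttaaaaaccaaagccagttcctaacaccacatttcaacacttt
A_30_P01021716, chr13:94180737-94182912, forward strand: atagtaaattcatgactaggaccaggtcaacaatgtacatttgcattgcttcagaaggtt
A_30_P01030743, chr13:94182877-94203852, reverse strand: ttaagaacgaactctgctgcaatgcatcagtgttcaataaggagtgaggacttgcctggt
A_30_P01028991, chr10:81846505-81863606, forward strand: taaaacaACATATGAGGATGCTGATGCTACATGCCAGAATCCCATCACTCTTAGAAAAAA
A_30_P01026481, chr10:81816994-81863610, forward strand: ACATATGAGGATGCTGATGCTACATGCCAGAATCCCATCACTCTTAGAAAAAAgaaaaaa
A_30_P01022463, chr17:79042382-79051807, reverse strand: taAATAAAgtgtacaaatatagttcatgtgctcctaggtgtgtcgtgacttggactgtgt
A_30_P01019857, chr1:194659312-194661407, reverse strand: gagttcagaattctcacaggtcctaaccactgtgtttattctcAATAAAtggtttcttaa
A_30_P01031754, chr19:5801802-5802597, reverse strand: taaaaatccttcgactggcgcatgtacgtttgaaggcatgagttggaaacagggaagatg

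The motif AATAAA, searched as those letters on the strand of the probe, was present in 3.92% of lincRNA probes and in 12.6% of all other probes of this length. Its reverse complement TTTATT was present in 3.03% and 4.03%. The share with AATAAA was 3.87% among lincRNA probes that were tested and 3.96% among those that were not. It was held by 9 of the 49 lincRNA probes called between the genotypes, in 9 transcripts. A match describes the probe's letters only.

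Fewer than 1 in every 2 lincRNA probes were detected in the striatum by the rule used here. A probe was taken as detected, and tested, when it was well above background by the scanner software's flag on at least 4 of the 8 arrays. By that rule 7592 lincRNA probes (46.7%) were detected, against 27529 of the 39430 other probes (69.8%). Detection was mostly shared by all arrays or by none: 6277 lincRNA probes (38.6%) were well above background on 8 arrays and 5894 (36.3%) on 0, while 64.9% of other probes were so on 8. The number of lincRNA probes above background on an array was 7173, 7520, 7508 and 8061 in WT and 7346, 7437, 7900 and 8744 in R6/2. The ranges of the genotypes overlapped, with R6/2 4 the highest of the 8 arrays. A less strict flag of the same software is signal positive and significant against background. It was set on at least 4 arrays for 11797 of the 16251 lincRNA probes, more than 1 in every 2. The share detected thus depends on the flag. The share of other probes by that flag is not given here.

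**Figure D1:**
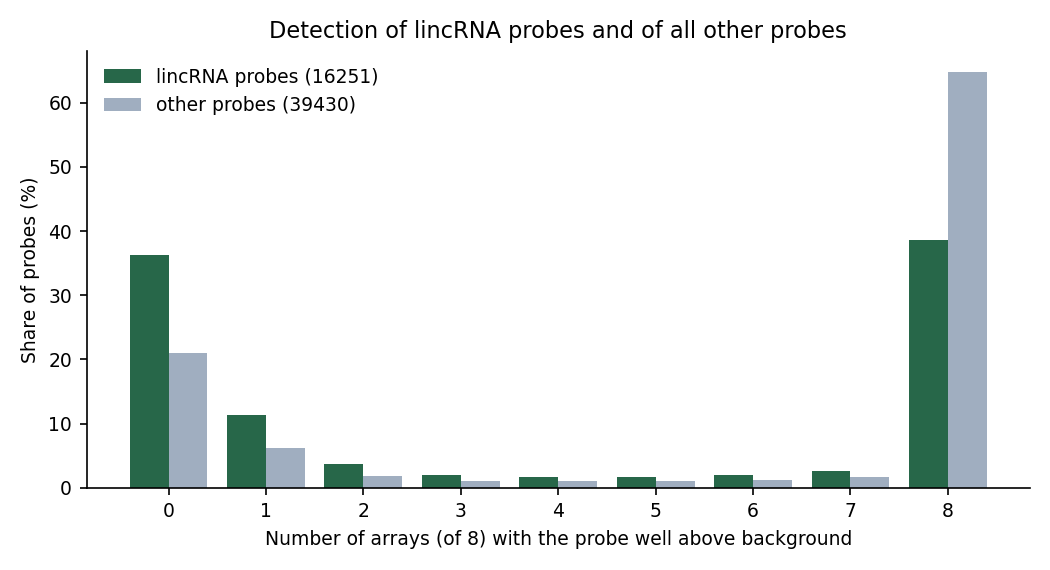
Share of lincRNA probes (green) and of all other probes (grey) by the number of arrays, from 0 to 8, on which the probe was well above background. Most probes of both kinds sit at 0 or at 8 arrays, with 38.6% of lincRNA probes and 64.9% of other probes at 8.

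At the level of transcripts, 3260 of 4622 (70.5%) had at least 1 detected probe. Detection differed between probes of a transcript: of 3932 transcripts with 2 or more probes, 979 had every probe detected, 1946 some and 1007 none. The median GC content was 45% in lincRNA probes that were detected and in those that were not (41.7% in all other probes). The share detected was 46.7% within 1 kb of the annotated 3′ end, 46.3% from 1 to 10 kb and 47.1% beyond 10 kb. Transcripts that contained a probe of a named gene on their own strand had 57.4% of their probes detected, against 45.4% where no named probe lay inside. Many regions were probed on both strands. Of 1067 such regions, 652 (61.1%) had detected probes on both strands, 325 (30.5%) on 1 strand and 90 (8.43%) on neither.

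Levels are given as log2 of the processed signal relative to the 75th percentile of its array, so that 0 is the signal that 75% of spots do not reach. The brightness of a probe also depends on its sequence, so these levels do not rank transcripts by abundance. The median level of detected lincRNA probes was -3.07. The lowest signal that counted as well above background lay between -5.54 and -5.15 on the 8 arrays, so many lincRNA probes were close to that limit.

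The 6 lincRNA probes of highest mean signal did not differ detectably between the genotypes. A_30_P01031754 and A_30_P01028215 both lie in chr19:5801802-5802597 on the strand of Malat1, an abundant nuclear RNA, at 6.36 and 6.50 kb from the nearest Malat1 probe. Their levels on the 4 WT arrays were 8.58, 8.92, 8.99 and 8.60 for A_30_P01031754, and 8.25, 8.52, 8.74 and 8.34 on the 4 R6/2 arrays. The genotypes overlapped, and the difference, R6/2 minus WT, was -0.31 ± 0.14 (SE, n = 4 per genotype; limma adjusted p = 0.318). For A_30_P01028215 it was -0.30 ± 0.17 (limma adjusted p = 0.399). The other bright probes had limma adjusted p from 0.629 to 0.990. They were in chr14:78924115-78938125 (difference -0.09 ± 0.10), chr17:17481706-17482457 (0.08 ± 0.08), chr7:108209996-108216032 (within 0.01 of 0, SE 0.06) and chr12:73838608-73862621 (-0.05 ± 0.07). The chr17 probe lies 124 bases, on the same strand, from a probe with the symbol Oaz1, the antizyme of ornithine decarboxylase. Whether that position is the Oaz1 gene itself was not determined.

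The lincRNAs that carry names of their own, singled out after their values were seen, were called in 0 cases. All 3 probes of NEAT2, another name of Malat1, were well above background on 8 arrays and had differences of -0.60, -0.62 and -0.56 (limma adjusted p = 0.266, 0.259 and 0.351). The 5 probes of NEAT1, the scaffold RNA of paraspeckles, had differences between -0.06 and 0.10, and those of TUG1 between 0.12 and 0.16. The NEAT1 differences are imprecise. A_30_P01020135 of NEAT1 was at -0.62, -1.06, 1.63 and -1.02 in WT and -0.77, -1.01, 1.35 and -0.55 in R6/2. The SE of its difference was 0.72, so a sizeable change could have been missed. BRN1-A was detected by all 4 of its probes, with differences between -0.17 and -0.10 (limma adjusted p from 0.31 to 0.572). XIST and TSIX, the RNAs of X inactivation, had 0 of their probes tested in these male samples, and lincP21 also had 0. HOTAIR, PINC and H19 were each detected by 1 probe only, with differences of -0.06, -0.04 and -0.23. NRON was detected by 2 probes and KCNQ1ot1 by 3, with limma adjusted p from 0.499 to 0.682.

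A smaller share of lincRNA probes than of the whole array was called between R6/2 and WT, and whether most of those called were lower or higher in R6/2 depended on the scaling. Of the 7592 tested, 49 (0.645%) were called at an adjusted p under 0.05 by limma, 34 lower and 15 higher, while with quantile normalization it was 27 lower and 37 higher. Of all 35121 tested probes 529, or 1.51%, were called (1.14% lower and 0.367% higher), and of the 27529 other tested probes 1.74%. In whole striatal RNA, fewer cells of a type and less RNA per cell cannot be told apart. The 4 R6/2 arrays lay to 1 side of the 4 WT arrays for 637 lincRNA probes (8.39%), against 12.4% of all tested probes. An unadjusted p under 0.05 was found for 1039 lincRNA probes (13.7%), against 17% of all tested probes. The median difference was -0.02 for lincRNA probes and 0.01 for all tested probes, and its sign turned with quantile normalization (0.02).

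Dimmer probes vary more, and the SE of the difference had a median of 0.149 for lincRNA probes and 0.113 for other probes. The share called was lower in lincRNA probes at each level. It was 0.492% against 1.32% of other probes at levels up to -4, and 0.537% against 1.70% between -4 and -2. Between -2 and 0 it was 0.933% against 1.93%, and above 0 it was 0.914% against 1.78%. These shares were not tested against each other.

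How many lincRNA probes were called depended on the settings. Fitting the replicate number, which is also the column of the array on the slide, as a block left 27 calls (0.806% of all tested probes called in that fit), of which 10 were among the 49. Normexp background correction gave 79 calls (2.78% of all tested probes), with 32 of the 49 among them, and quantile normalization 64 (1.64%), with 39. With quantile normalization, 0.598% of all tested probes were called higher and 1.04% lower. With no filter on background, 7 of 10 called lincRNA probes were higher. The count was 15 without WT 1, 7 without WT 2, 48 without WT 3 and 3 without WT 4. It was 8, 7, 7 and 11 without R6/2 1, 2, 3 and 4. All 49 kept 1 sign under every alternative in which they were tested, and 2 were called whichever array was removed. In all 49 the genotypes did not overlap, so leaving out 1 array could not turn the sign. In the authors' deposited table, 10 of 16251 lincRNA probes had an adjusted p under 0.05, against 144 of all probes. Of the 10, 5 were called here (A_30_P01018145, A_30_P01018151, A_30_P01019857, A_30_P01027314 and A_30_P01030443).

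The 49 called probes lay in 41 transcripts. Of the 34 such transcripts with 2 or more tested probes, 3 had every tested probe called, 2 of them lower and 1 higher. In 6 of the 34 the tested probes went in both directions.

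One region lower in R6/2 by all its probes was chr5:73771801-73772662, on the forward strand. The level of its probe A_30_P01018547 was 0.93, 1.28, 1.62 and 1.26 on the WT arrays and -0.07, 0.17, -0.07 and 0.32 on the R6/2 arrays. Every R6/2 array was below every WT array, and the difference was -1.19 ± 0.16 (SE, n = 4 per genotype; limma adjusted p = 0.0186, and 0.0519 with the replicate block). A_30_P01028946 fell by 1.32 on the log2 scale (limma adjusted p = 0.0259, and 0.0508 with the block). A_30_P01024960 differed by -1.25 (limma adjusted p = 0.0298, and 0.0482 with the block). The nearest named probe is of Gm34583, a predicted gene on the same strand 10.1 kb from the first of these probes, and was also called (-1.68; limma adjusted p = 0.012). The calls of the 3 lincRNA probes held in 3 of the 8 fits that left out 1 array.

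The other region with all 3 probes called lower was chr10:94870971-94871658, on the reverse strand. It lies on the strand of Socs2, which encodes a suppressor of cytokine and growth hormone signalling, 3.85 to 4.02 kb from the nearest Socs2 probe. Socs2 probes lie on both sides of it, starting at positions 94848005 and 94875066. Whether the region is part of a Socs2 transcript was not determined. The level of A_30_P01027314 was 0.14, 0.31, 0.20 and 0.15 in WT and -0.40, -0.45, -0.46 and -0.57 in R6/2. The genotypes were well apart, with a difference of -0.67 ± 0.07 (limma adjusted p = 0.0102, and 0.0482 with the block), and the call held in all 8 fits that left out 1 array. A_30_P01024852 differed by -0.63 ± 0.10 (limma adjusted p = 0.0288, and 0.059 with the block) and A_30_P01026073 by -0.38 ± 0.07 (0.0443, and 0.0702 with the block). All 4 tested Socs2 probes were called lower, with differences from -0.73 to -0.59. On the opposite strand, in chr10:94848446-94874121, 2 of 5 probes were tested, with differences of -0.67 and -0.73 that were not called (limma adjusted p = 0.168 and 0.343).

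Of the other probes among the 12 of smallest p that were lower, A_30_P01021716 lies downstream of Homer1 and is described with that locus. A_30_P01018151 in chr3:35831966-35841638 had levels of 1.36, 1.47, 1.31 and 1.40 in WT and 0.91, 0.93, 0.72 and 0.85 in R6/2, which did not overlap. Its difference was -0.53 ± 0.07 (limma adjusted p = 0.0225, and 0.0482 with the block), but the other tested probe of the transcript went the other way, and the call held in 1 of the 8 fits that left out 1 array. The nearest gene probe, of Dcun1d1, a ligase component for the ubiquitin-like protein NEDD8, lay 16.8 kb away on the opposite strand and differed by -0.06.

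The dimmer of these probes lost size with normexp, which compresses low signals. A_30_P01023609 in chr1:94608820-94634671 was at -3.54 ± 0.33 (SD, n = 4) in WT and -4.96 ± 0.27 in R6/2, a difference of -1.41 that normexp brought to -0.38. It was well above background on 4 WT and 2 R6/2 arrays. A_30_P01027120 in chr1:87343550-87362900 went from -1.32 to -0.56 with normexp, and A_30_P01027577 in chr1:85117750-85129200 from -1.16 to -0.50. A_30_P01032002 in chr4:149445201-149445902 went from -0.68 to -0.42, and A_30_P01022029 in chr18:73863912-73864665 from -0.56 to -0.31. These 5 probes kept their calls with normexp. With the replicate block, A_30_P01023609 and A_30_P01022029 were not called (limma adjusted p = 0.059 and 0.0572). A_30_P01022049 in chr7:111526943-111545093 differed by -0.61 ± 0.10 (limma adjusted p = 0.0288, and 0.0572 with the block). The nearest gene probes of these 6, at 11.0 to 122 kb, were of Otos, Sp110, Gm35498, Gpr157, Elac1 and Trim30c, and of the 4 that were tested 0 were called.

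**Figure D2:**
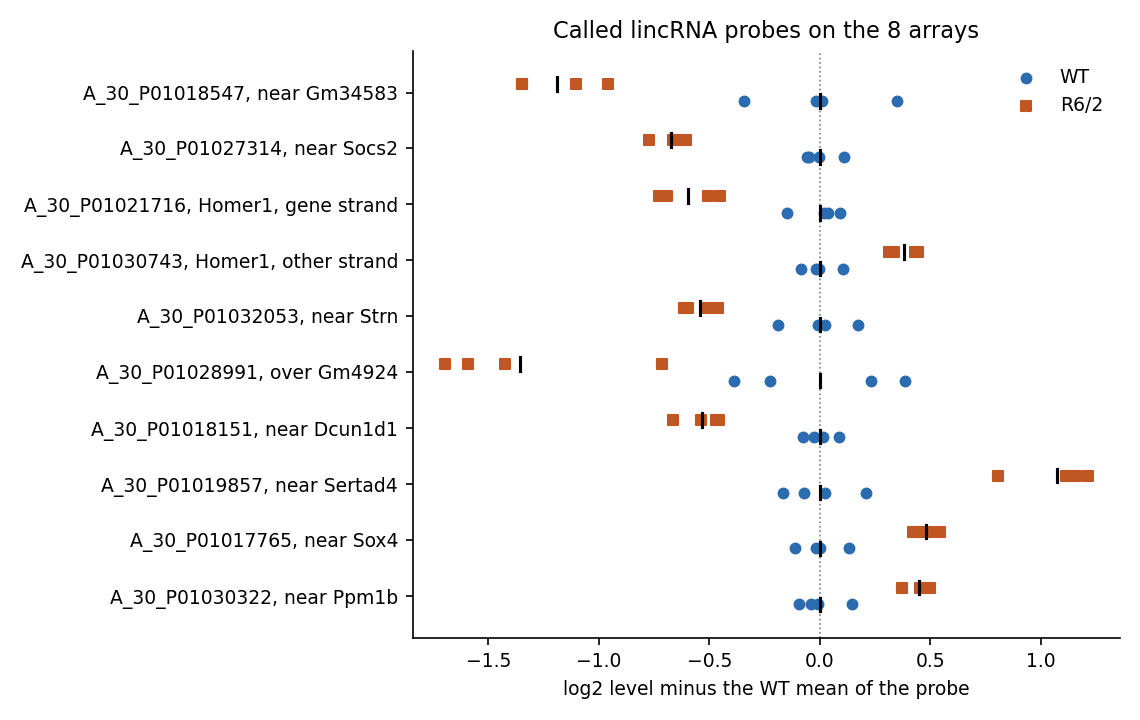
Levels of 10 called lincRNA probes on the 8 arrays, each as log2 level minus the probe's WT mean, with WT arrays as blue circles, R6/2 arrays as orange squares and group means as black bars. In each of the 10 probes every R6/2 array lies to 1 side of every WT array, from the Gm34583 region (-1.19) to the Sertad4 region (1.07).

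Of the 15 probes called higher in R6/2, 10 of the 12 of smallest p had WT mean levels under -2. The 2 tested probes of chr1:194659312-194661407, on the reverse strand, were both called. A_30_P01019857 had levels of -5.07, -4.69, -4.88 and -4.97 in WT and -3.69, -3.79, -3.74 and -4.10 in R6/2. All R6/2 arrays were higher, by 1.07 ± 0.12 (limma adjusted p = 0.0102, and 0.0482 with the block), and this call held in all 8 fits that left out 1 array. A_30_P01028732 was higher by 0.82 ± 0.15 (limma adjusted p = 0.0447, and 0.0635 with quantile normalization), and was called in 0 of those 8 fits. With normexp the differences were 0.22 and 0.18 and neither was called (limma adjusted p = 0.0999 and 0.269). A gene probe without a symbol, A_55_P2077831, lies inside the region on the same strand and differed by 0.75 without a call (limma adjusted p = 0.201). Another such gene probe there, A_51_P127149, was well above background on 1 array. The remaining lincRNA probe of the region, A_30_P01025766, was so on 3 arrays. Neither was tested. The probe of Sertad4, the nearest with a symbol, on the same strand 11.9 kb from A_30_P01019857, differed by 0.21 (limma adjusted p = 0.541).

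Both A_30_P01017765 and A_30_P01031015 lie in chr13:29106280-29120376, whose 3 tested probes were all higher. The level of A_30_P01017765 was -2.08, -2.20, -1.95 and -2.10 in WT and -1.66, -1.59, -1.62 and -1.54 in R6/2. Each R6/2 array was above each WT array, by 0.48 ± 0.07 on average (limma adjusted p = 0.0288, and 0.0626 with the block). A_30_P01031015 was higher by 0.69 ± 0.12 (limma adjusted p = 0.0408, and 0.0626 with the block) and by 0.42 with normexp. The nearest gene probe is of Sox4, a transcription factor of neural progenitors, 61.8 to 71.0 kb away on the opposite strand, and differed by 0.32 (limma adjusted p = 0.191).

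A brighter probe, A_30_P01030322 in chr17:85418489-85427364, was at -0.13 ± 0.10 (SD, n = 4) in WT and 0.32 ± 0.05 in R6/2 (limma adjusted p = 0.0345, and 0.0605 with the block). All 6 probes of this transcript were positive, from 0.09 upwards, while the probe of Ppm1b, a protein phosphatase 6.81 kb away, differed by -0.07. A_30_P01030602, the only probe of chr2:50152329-50289487, was higher by 0.54 ± 0.09 (limma adjusted p = 0.03, and 0.0569 with the block). A_30_P01023065 in chr11:112905201-113062945 was higher by 0.59 ± 0.08 (limma adjusted p = 0.0246, and 0.063 with the block, and 0.34 in size with normexp). It lies 124 bases from the probe of 2610035D17Rik, on its strand, which differed by 0.38 (limma adjusted p = 0.0902).

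The other 5 lost their call with normexp. They were A_30_P01030443 in chr5:106126051-106128392 (0.63, and 0.23 with normexp), A_30_P01029836 in chr5:92548501-92566401 (0.94, and 0.16), A_30_P01030879 in chrX:6982891-7008528 (1.21, and 0.24), A_30_P01023285 in chr9:68349343-68411643 (0.56, and 0.25) and A_30_P01029746 in chr14:115443612-115445950 (0.50, and 0.22). Of these, A_30_P01030443 kept its call with the replicate block (limma adjusted p = 0.0482), and the other 4 did not (limma adjusted p from 0.0663 to 0.0884). Both A_30_P01029836 and A_30_P01030879 were well above background on only 1 WT array but on 4 R6/2 arrays. Their WT means, -5.26 and -5.44, lay near the detection limit, so the sizes of these differences are uncertain. A_30_P01030879 overlaps the probe of 2010204K13Rik, which was also called (1.13; limma adjusted p = 0.019). A_30_P01029746 overlaps the probe of Mir17hg, the host gene of a growth-promoting microRNA cluster, which differed by 0.44 (limma adjusted p = 0.232).

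Each lincRNA probe was paired with the nearest probe of a named gene, and the relation of their differences depended on strand and distance. Within 1 kb on the same strand, the difference of the lincRNA probe followed that of the gene probe (r = 0.76 across 627 probes of 251 transcripts beside 202 genes), and 479 (76.4%) had the same sign. Within 1 kb on the opposite strand r was 0.05 across 275 probes, and 50.9% had the same sign. The pairs share arrays, and several lincRNA probes share a gene, so these are descriptions across probes. Over the means of transcripts, r was 0.79 on the same strand and 0.06 on the opposite strand. When any 1 gene was left out, r on the same strand stayed between 0.74 and 0.77, and with normexp it was 0.79 on the same strand and -0.02 on the opposite strand.

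**Figure D3:**
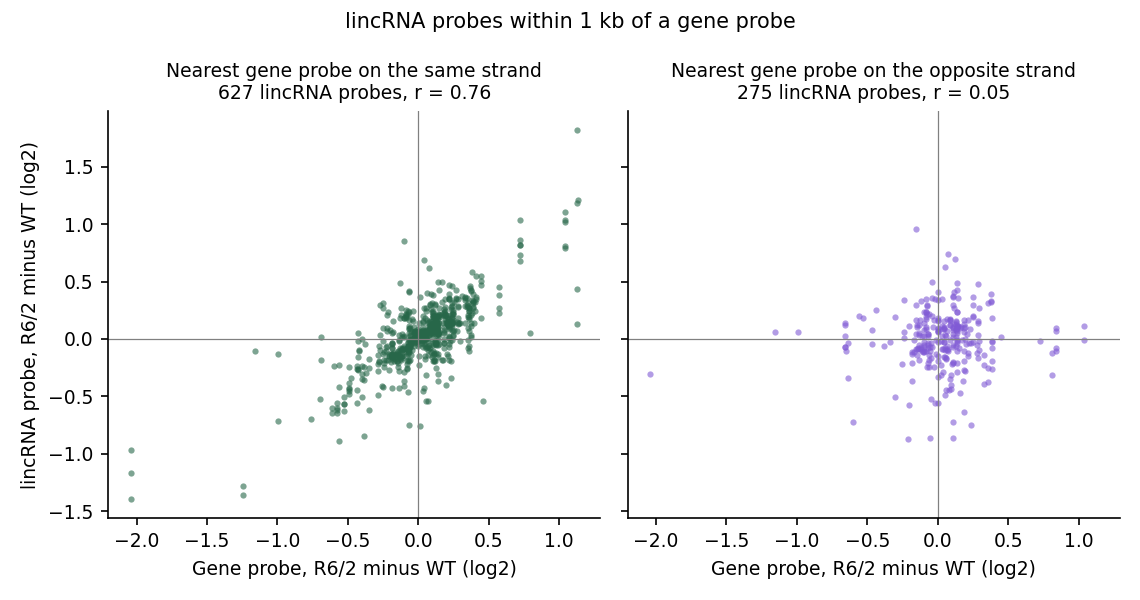
Log2 difference, R6/2 minus WT, of each lincRNA probe within 1 kb of the nearest gene probe (y) against the difference of that gene probe (x), for pairs on the same strand (left, 627 probes) and on opposite strands (right, 275 probes). The points rise together on the left (r = 0.76) and form a shapeless cloud on the right (r = 0.05).

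Overlap of the probes themselves was present in part of these pairs. In 142 same-strand pairs the probes overlapped (r = 0.86), and in the 485 that did not overlap r was 0.72. From 1 to 10 kb r was 0.33 on the same strand (1216 probes) and 0.06 on the opposite strand (746 probes). From 10 to 100 kb it was 0.25 and 0.07 by Pearson, but the same-strand value was 0.08 by Spearman and fell to 0.13 without the probes nearest to LOC100046091. Beyond 100 kb it was 0.11 (298 probes) and 0.05 (182 probes). With pairs restricted to probes well above background on 8 arrays, r within 1 kb was 0.79 on the same strand and -0.02 on the opposite strand. For comparison, the first 2 tested probes of a transcript correlated at 0.45 over 1933 transcripts, and the forward and reverse strands of a region at 0.10 over 652 regions.

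The largest run of lincRNA probes on 1 strand with 1 direction among the loci examined, chosen after its values were seen, lies downstream of Homer1. This gene encodes a scaffold protein of excitatory synapses. Its probes were lower in R6/2, by 0.81 (called, limma adjusted p = 0.0102) and 0.56 (limma adjusted p = 0.0626) on the log2 scale. From 7.64 to 29.0 kb beyond the last Homer1 probe, 25 lincRNA probes of 8 transcripts lie on its strand. All 25 were tested and all had negative differences, from -1.12 to -0.37 with a median of -0.71, and 3 were called. With normexp and with quantile normalization all 25 were again negative.

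A_30_P01021716, in chr13:94180737-94182912, had levels of 1.39, 1.46, 1.22 and 1.40 in WT and 0.91, 0.86, 0.64 and 0.67 in R6/2. The genotypes did not overlap, and the difference was -0.59 ± 0.09 (limma adjusted p = 0.0288, and 0.0482 with the block). A_30_P01023231 in the same region differed by -0.55 ± 0.10 (limma adjusted p = 0.0465, and 0.061 with the block). A_30_P01033117 in chr13:94185501-94185936 differed by -0.94 ± 0.18 (limma adjusted p = 0.0486, and 0.059 with the block), which normexp reduced to -0.25 without a call, and which was not called with quantile normalization (0.132). On the opposite strand of the same stretch, 18 of 25 probes were tested, 14 positive and 4 negative.

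The positive values included all 5 probes of chr13:94182877-94203852 on the reverse strand, from 0.30 to 0.53. Its A_30_P01030743 was at -3.63, -3.62, -3.51 and -3.70 in WT and -3.28, -3.19, -3.30 and -3.17 in R6/2. Every R6/2 array was higher, by 0.38 ± 0.07 (limma adjusted p = 0.0466, and 0.0843 with the block), or by 0.15 with normexp, without a call. Closer to Homer1, all 3 tested probes of the opposite strand within 18 kb were negative. The nearest gene probe on that strand is of Jmy, an actin nucleation factor, and differed by 0.07 (limma adjusted p = 0.65).

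**Figure D4:**
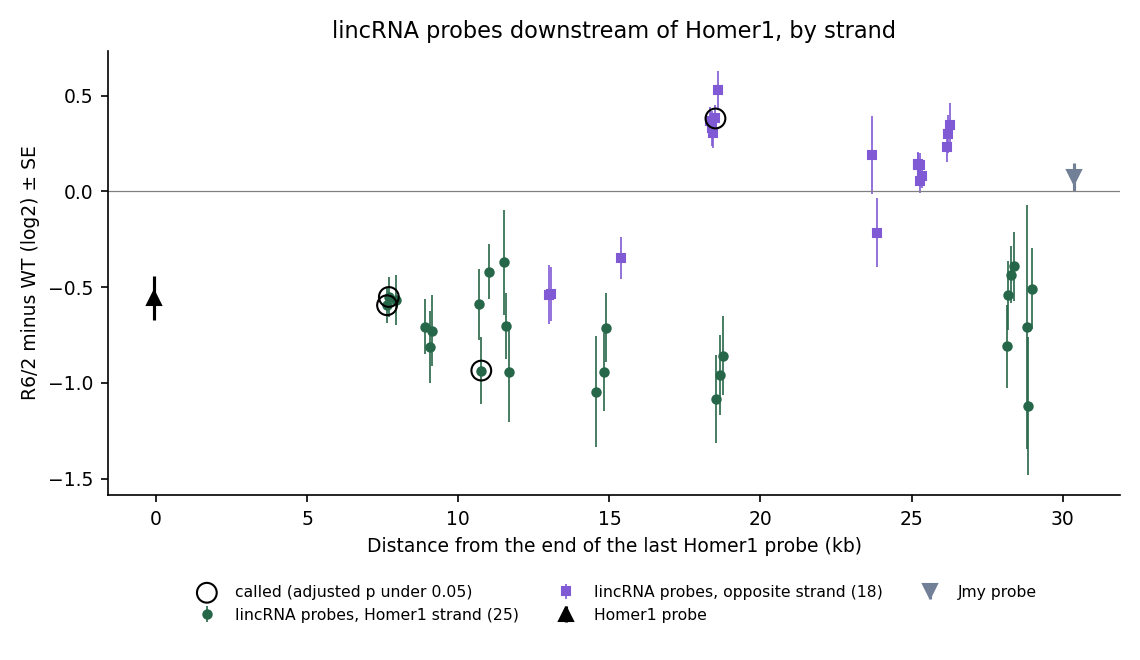
Log2 difference, R6/2 minus WT, with its SE, of tested lincRNA probes against their distance from the end of the last Homer1 probe in kb, on the Homer1 strand (green circles, 25) and the opposite strand (purple squares, 18), with the last Homer1 probe and the Jmy probe for comparison and called probes circled. All 25 on the Homer1 strand lie below 0, while 14 of 18 on the opposite strand lie above it.

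Of the 44 striatal projection neuron markers, only Strn was the nearest named gene of any tested lincRNA probe. Strn encodes striatin, a calmodulin-binding scaffold named for its abundance in the striatum. It had 16 tested lincRNA neighbours in 4 transcripts, all with negative differences (median -0.57), also with normexp and quantile normalization, and 2 were called. The 10 on the strand of Strn had a median of -0.67 and the 6 on the opposite strand -0.39. A_30_P01032053 in chr17:79042382-79052046 was at 0.06, 0.02, -0.16 and 0.21 in WT and -0.47, -0.58, -0.43 and -0.56 in R6/2. All R6/2 arrays were below all WT arrays (difference -0.54 ± 0.09; limma adjusted p = 0.0341, and 0.0738 with the block).

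A_30_P01022463 in chr17:79042382-79051807 differed by -0.60 ± 0.11 (limma adjusted p = 0.0453, and 0.07 with the block) and by -0.30 with normexp, and was not called with quantile normalization (limma adjusted p = 0.0726). The other 6 of smallest p had differences between -0.84 and -0.51 (limma adjusted p from 0.0559 to 0.119). The Strn probe itself, 1.86 kb from A_30_P01032053, differed by -0.45 ± 0.13 and was not called (limma adjusted p = 0.137). The mean log2 level of the 44 striatal markers ran from 2.71 to 2.97 in WT and from 2.15 to 2.53 in R6/2 and so did not overlap. Its part in the Strn values was not tested.

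Few markers of other cell types were called. Of 10 markers each of cortical glutamatergic neurons, choroid plexus, oligodendrocytes, astrocytes, microglia and endothelial cells, all were tested and 0 were called, with medians from -0.24 to -0.06. Of the 10 markers of motile cilia and ependyma, 2 were called higher (median 0.31): Cfap206 by 1.29 and Enkur by 0.91 (limma adjusted p = 0.0259 and 0.0416, and 0.0611 and 0.0733 with the block). Their mean level ran from -2.09 to -1.26 in WT and from -1.37 to -0.93 in R6/2. The mean choroid plexus level varied widely between arrays of both genotypes, from -0.17 to 2.08 in WT and from -0.19 to 1.89 in R6/2. The part of either in the lincRNA differences was not tested.

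At Gm4924, chosen after its values were seen, lincRNA probes overlapped a gene probe. A_30_P01028991 in chr10:81846505-81863606 was at 0.92, 1.38, 0.76 and 1.53 in WT and -0.27, -0.55, 0.43 and -0.44 in R6/2. The genotypes did not overlap, although R6/2 3 was closest to WT, and the difference was -1.36 ± 0.25 (limma adjusted p = 0.047, and 0.105 with the block). A_30_P01026481, which shares 53 bases with it but is assigned to chr10:81816994-81863610, differed by -1.29 ± 0.24 (limma adjusted p = 0.0481, and 0.105 with the block). The Gm4924 probe that both overlap differed by -1.24 (limma adjusted p = 0.0518). The other 2 probes of chr10:81816994-81863610, at separate positions, differed by -1.27 and -1.12 without a call. Between them on the same strand lies a brighter gene probe without a symbol, A_55_P2067112 (mean level 2.48). It differed by only -0.17 (limma adjusted p = 0.556).

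Some signals were seen in only 1 genotype. By the detection flag, 7 lincRNA probes were above background on 4 R6/2 and 0 WT arrays, and 2 on 4 WT and 0 R6/2 arrays. These counts are not set against those over all probes, so they cannot be called few or many. Such probes passed the filter only through the genotype in which they were detected. Their p-values and separation are therefore no further evidence of a difference. Folds for such probes are lower bounds, with each array of the undetected genotype set to the higher of the probe's own signal and the lowest signal well above background on that array. The 1 that was called, A_30_P01023257 in chr2:113880070-113887230, was at -4.27, -3.37, -4.07 and -5.03 in WT and at -5.66, -7.43, -6.71 and -6.97 in R6/2. The level was at least 2.32-fold lower in R6/2 (limma adjusted p = 0.0416, and 0.0776 with the block). Its R6/2 signals were under the detection limit, so the fitted difference of -2.51 is not a measured size. The nearest gene probe, of the cardiac actin gene Actc1 on the opposite strand, was above background on 0 arrays.

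A_30_P01026468 in chr7:69008096-69070309, the other probe seen in WT only, was at least 1.43-fold lower and not called (limma adjusted p = 0.0776). The 7 seen in R6/2 only had bounds from 1.22-fold to 1.58-fold higher, and 0 of them were called (limma adjusted p from 0.0668 to 0.379). In 4 of these 7 the genotypes' levels overlapped. One of the 4 was A_30_P01020380, at -4.88, -5.11, -4.93 and -7.28 in WT and -4.22, -4.68, -4.33 and -4.98 in R6/2.

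Further called probes outside the 24 of smallest p, named after their values were seen, included A_30_P01025205 and A_30_P01032448 in chr2:174852887-174853961. Their differences were -0.65 and -0.57 (limma adjusted p = 0.0406 and 0.0499), and their block values were 0.0605 and 0.0803. A_30_P01031799 was the only called probe of the 10 in chr2:157361470-157379813 (-0.49 ± 0.09; limma adjusted p = 0.0431, and 0.0672 with the block), but all 10 were negative. The nearest gene probe there, of Blcap on the same strand 10.9 kb away, differed by 0.43 in the opposite direction (limma adjusted p = 0.0789). A_30_P01017637, 24 bases from the probe of Mrln, a micropeptide gene of muscle, was higher by 1.04 ± 0.20 (limma adjusted p = 0.0489, and 0.0588 with the block), and all 5 probes of its transcript chr10:69669025-69686275 were positive. With normexp that difference was 0.36.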

How the data were processed

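Agilent Feature Extraction 10.7.3.1 produced the scanner output, per the file headers, and the deposited intensity values are spot signals with a spatially detrended processed signal, not scaled between arrays. The authors also deposited log2 values, p-values with their adjustment, and unsigned fold changes (a ratio) in a table of the series. Probe coordinates come from the scanner files and are on build mm9.

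Here, log2 of the processed signal was taken relative to each array's 75th percentile (434 to 486) over all non-control spots. Spots with outlier flags were left out (88 to 155 of 59305 per array, and 1 spot of 1 tested lincRNA probe), no spot was saturated, and spots of a probe were averaged. Probes well above background on at least 4 of 8 arrays were fitted with limma 3.58.1 (lmFit, eBayes, R 4.3.3). The procedure was checked on simulated arrays that varied independently. Shared deviations of same-numbered samples were not simulated, so the check does not cover them. The Benjamini-Hochberg adjustment ran over all 35121 tested probes, and an adjusted p under 0.05 was a call.

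Same-numbered R6/2 and WT samples deviated together (correlations of 0.222, 0.183, 0.356 and 0.133), so the replicate number was also fitted as a block. The labels do not say that the samples were paired. A pairing and the shared slide column cannot be told apart, and the main fit leaves both out. The nearest named probe was the closest by position on either strand, with a gene symbol, updated from GRCm38.p6 names. Of the lincRNA probes, 118 had no position and so no neighbour. Named members were the 12 of smallest p in each direction, the 6 brightest, those seen in 1 genotype only and up to 8 beside a striatal marker. The members, lists and loci were chosen with earlier results of these data known. Alternatives were normexp with an offset of 50, quantile normalization, other filters, flagged spots kept, the authors' values, the replicate block, and each array left out.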

Additional observations from a re-analysis of the deposited data

Results flagged for a closer look

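In 138 groups of 4 arrays (69 lincRNA probes in 2 genotypes), 5 held an array far from the other 3 by Dixon's criterion. Chance gives about 1 in 20 groups. The 69 were the called probes, the 6 brightest, those seen in 1 genotype only and the 8 of smallest p beside Strn. LincRNAs with names of their own were not screened. Among these, A_30_P01020135 of NEAT1 was far higher on WT 3 (1.63) and R6/2 3 (1.35) than on the other arrays. WT 3 was the lowest of the WT arrays for A_30_P01022075 in chr17:17481706-17482457, at a log2 level of 6.68, and for A_30_P01023231 downstream of Homer1, at 1.32. WT 4 was the lowest for A_30_P01020380 in chr5:96591892-96606467, at -7.28. WT 2 was the highest for A_30_P01020909 in chr13:73472571-73483846, at -0.92. R6/2 4 was the lowest for A_30_P01032448 in chr2:174852887-174853961, at -1.94.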

How the results depend on the processing

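The number of called probes moved by over 1.5 times under several settings. Over all tested probes it was 529, and 978 with normexp, 110 with no filter on background, 283 with the replicate block, and 94 to 498 when 1 array was left out. Over lincRNA probes it was 49, and 79 with normexp, 74 among probes well above background on all 8 arrays, 10 with no filter, 27 with the replicate block, and 3 to 48 when 1 array was left out. With no filter 7 of the 10 were higher in R6/2, and without WT 3 21 of 48. The cause was not tested, except that leaving out an array leaves fewer samples. The count of detected lincRNA probes was 7592, and 11797 by the less strict flag; it was 6277 on all 8 arrays and 10357 on at least 1. The median lincRNA difference stayed between -0.04 and 0.02, and was 3.2e-05 without WT 3. The block ended the call of 39 of the 49, and their values are given beside the named probes. The slide could not be a block, since all arrays lay on 1 slide. No called lincRNA probe changed sign, which was fixed in advance for the fits that left out 1 array. Where lincRNA signals lie near background, the size of a difference depends on the background correction, as the normexp values show.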

Other observations

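Annotated non-coding RNA genes outside the lincRNA probes were listed for comparison. Of 52 listed genes, 38 were tested, 1 was called higher and 0 lower, and the median difference was 0.08. Of all tested probes, 1.51% were called. The 1 called was Gm12695 on chromosome 4, reported as the gene in which the R6/2 transgene integrated. Its mean level was -7.59 in WT, under the detection limit, and -1.39 in R6/2. It passed the filter through R6/2, so its call is no further evidence of a difference. The next smallest p-values were those of Jpx, an activator of Xist (0.57; limma adjusted p = 0.0582), and of Snhg5, a snoRNA host gene (0.30; limma adjusted p = 0.109). Within 1 Mb of the Gm12695 probe lay 5 lincRNA probes, of which 1 was tested, with a difference of -0.25 (limma adjusted p = 0.67).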
